A study of Mus musculus with 25 samples.

Results

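The microRNA hairpins mmu-mir-126a, mmu-mir-126b, mmu-mir-199a-1, mmu-mir-199a-2 and mmu-mir-199b are described here in mouse blood across 5 ages. They were taken by name from the table of precursor counts, as 5 of its 1193 precursors. Small RNA libraries had been made with the TruSeq kit from the blood of male mice of the inbred strain C57BL/6. Animals of 2, 9, 15, 24 and 30 months gave 5 libraries per age, and each of the 25 libraries carries its own animal number. The labels name no treatment or allele for any group, and age is the one factor that separates them. Whether plasma, platelets and all blood cells were lysed together is not stated in the labels.

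A microRNA is cut from a hairpin precursor into a short strand that guides Argonaute proteins to messenger RNAs, mainly through its seed, bases 2 to 8. The mir-126 hairpin sits in the gene of Egfl7, a secreted protein of endothelial cells. miR-126 is known for its high level in endothelium, for its part in vessel growth and integrity, and as one of the microRNAs carried by platelets. The mir-199 hairpins lie antisense to the dynamin genes, which encode membrane-cutting GTPases. miR-199 is known from mesenchymal, stromal and smooth muscle cells and is also carried by platelets and their megakaryocyte precursors.

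The sequences below show how far the 5 hairpins can be told apart by their reads. They come from RefSeq on the mouse assembly GRCm38.p6, where all 5 hairpins were found by name. They are written 5′ to 3′ with the seed in capitals.
mmu-miR-126a-3p: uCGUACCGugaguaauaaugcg
mmu-miR-126b-5p: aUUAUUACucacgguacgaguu
mmu-miR-126b-3p: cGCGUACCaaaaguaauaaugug
mmu-miR-199a-5p: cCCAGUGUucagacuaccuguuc
mmu-miR-199a-3p: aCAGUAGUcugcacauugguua
mmu-miR-199b-3p: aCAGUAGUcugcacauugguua
The 3p strands of miR-199a and miR-199b are identical. Among the 1679 mature mouse microRNAs of the RefSeq table, the seed CAGUAGU was found in these 2 names and in no other. The seeds of miR-126a-3p, of both miR-126b strands and of miR-199a-5p were each found under 1 name. The 3p strand of miR-199a lies whole in all 3 mir-199 hairpins, and its 5p strand lies whole in both mir-199a hairpins. Against the mir-199b hairpin the 5p strand of miR-199a was identical at 22 of 23 bases, with the substitution C10U, counted from 1 at the 5′ end of miR-199a-5p. miR-126a-5p and miR-199b-5p are not shown.

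The 2 mir-126 hairpins are opposite strands of one stretch of DNA. In the hairpins below, capitals mark the mature strands listed above.
mir-126a hairpin: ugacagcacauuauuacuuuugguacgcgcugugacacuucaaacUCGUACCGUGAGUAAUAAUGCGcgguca
mir-126b hairpin: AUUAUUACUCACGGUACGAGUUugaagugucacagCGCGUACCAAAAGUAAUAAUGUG
mir-126a lies at chr2:26591357-26591429 on the plus strand and mir-126b at chr2:26591363-26591420 on the minus strand. They share 58 bases, and the reverse complement of mir-126b lies whole inside mir-126a. In GENCODE vM21, an annotation of the same assembly, 9 Egfl7 transcripts run across mir-126a on its strand, and 1 annotated Egfl7 exon covers it whole, so it is intronic in the other Egfl7 transcripts that span it. The gene model Gm20532 also spans it. mir-199a-1 lies at chr9:21496495-21496564 on the minus strand, opposite to an intron of Dnm2. mir-199b lies at chr2:32318460-32318569 on the plus strand, opposite to an intron of Dnm1. mir-199a-2 lies at chr1:162217814-162217923 on the plus strand, opposite to Dnm3 and inside the noncoding gene Dnm3os, of which 2 annotated exons hold the whole hairpin. Its cluster partner mir-214 lies 5444 bases downstream in the same noncoding gene. These are positions in GRCm38, and the build behind the counts is not stated in the labels.

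The table counts reads per hairpin and does not split them by arm. Whether strand was used, and how reads that fit several hairpins were assigned, are not given. Reads of mir-126a and mir-126b, and reads of the 3 mir-199 hairpins, are therefore uncertain as to their hairpin, and sums over each family are given beside the single values. Levels are given as CPM, counts divided by the library size after scaling by TMM (trimmed mean of M-values) factors. No length correction was made, since the mature strands shown are all 22 or 23 bases long.

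The 25 libraries held 4.884 to 24.25 M counts with a median of 15.39 M. Those of 30 months held the fewest, with 9.89 ± 2.71 M against 18.8 ± 2.81 M for the youngest. Here and below, ± is the SD over the 5 libraries of an age (n = 5). A level of 3 counts, taken as the limit that a count of 0 allows, came to 0.118 to 0.528 CPM. Intervals and limits of this kind cover counting error only, since the reads carry no molecular identifiers. No pair of libraries of one age agreed within sampling noise. Sequencing lanes 3 to 8, named in the column headers, were spread unevenly over the ages. Apart from 30 months replicates 4 and 5, the index sequences follow the ages in alphabetical order, so index and age cannot be told apart. The erythroid list used below, led by mir-486 and mir-451a of red cells, made up 76.0% ± 0.579 of counts in the youngest libraries and 73.9% ± 2.31 in the oldest. This list thus dominates the counts, although reads counted for both mir-486 hairpins would enter this share more than once.

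All 5 hairpins passed the expression filter and were tested, while 855 of the 1193 precursors were left out by it. Over the 25 libraries mir-126a had a mean level of 9.22 CPM, the 155th highest of the tested precursors. mir-126b followed at 5.74 CPM. The mir-199 hairpins were rare, at 0.773 CPM for mir-199a-1, 0.719 CPM for mir-199a-2 and 0.532 CPM for mir-199b, which ranked 281st, 287th and 321st. The summed mir-126 reads thus outnumbered the summed mir-199 reads at every age, by mean levels of 21.6 against 3.0 CPM at 2 months and 8.37 against 1.31 CPM at 30 months.

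mir-126a, the hairpin of the endothelial and platelet microRNA, was lower in blood of the oldest mice. At 2 months its 5 libraries had 11.9, 14.6, 13.4, 14.1 and 10.3 CPM, in the order of replicates 1 to 5. At 9 months they had 11.5, 13.3, 3.73, 6.78 and 5.23 CPM. Replicates 1 and 2 of 9 months were as high as the young libraries, and the other three lay below all of them. At 15 months the levels were 12.6, 7.85, 18.1, 6.82 and 12.7 CPM, and replicate 3 was the highest of all 25 libraries. At 24 months they were 9.06, 4.91, 12.3, 6.86 and 9.17 CPM. The 30 month libraries had 7.22, 2.67, 5.39, 3.2 and 6.75 CPM, all below the lowest library of 2 months, as for 5.03% of the tested precursors. The mean was 12.9 ± 1.77 CPM at 2 months, 8.10 ± 4.11 at 9 months, 11.6 ± 4.53 at 15 months, 8.45 ± 2.76 at 24 months and 5.05 ± 2.05 at 30 months. Raw counts of mir-126a ran from 170 to 275 at 2 months and from 29 to 96 at 30 months, so counting error alone was 6.82% and 13.8% of the mean level. The observed spread was larger, at 13.7% and 40.6%.

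mir-126b, the antisense hairpin, followed the same order of ages with lower levels. Its means were 8.78 ± 1.66, 4.83 ± 2.66, 6.33 ± 2.61, 5.42 ± 1.96 and 3.32 ± 1.43 CPM from the youngest to the oldest group. At 2 months replicates 1 to 4 lay between 9.42 and 9.61 CPM, and replicate 5 stood apart at 5.81 CPM. At 30 months the libraries had 3.61, 1.47, 4.96, 2.30 and 4.27 CPM, again all below the lowest library of 2 months, as for 5.03% of the tested precursors. Over all libraries mir-126b held 38.2% of the reads of both hairpins (2386 of 6240, 95% Clopper-Pearson interval 37.0 to 39.5), with 32.2 to 47.9% in single libraries. The log2 ratio of mir-126b to mir-126a differed by −0.05 between 30 and 2 months (exact permutation test, two-sided, p = 0.778, n = 5 each), a comparison added after the values were seen.

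mir-199a-1 had the tightest young group and the lowest old group of the mir-199 hairpins. Its raw counts at 2 months were 20, 17, 18, 25 and 19, or 1.12, 1.20, 1.15, 1.28 and 1.15 CPM. At 9 months the counts were 26, 51, 8, 11 and 8, which gave 1.43 and 2.41 CPM in replicates 1 and 2 and 0.624 to 0.777 CPM in the others. The 15 month counts were 13, 9, 14, 10 and 12, from 0.468 to 0.969 CPM. At 24 months they were 13, 6, 17, 2 and 5, from 0.352 to 0.670 CPM. At 30 months the counts were 6, 4, 1, 2 and 6, and the levels 0.451, 0.368, 0.142, 0.200 and 0.596 CPM. Every library of 15, 24 and 30 months lay below the lowest of 2 months, as for 1.48%, 5.33% and 5.03% of the tested precursors at these ages. Means were 1.18 ± 0.0658, 1.18 ± 0.762, 0.680 ± 0.184, 0.473 ± 0.152 and 0.351 ± 0.185 CPM by rising age. At 2 months the observed spread of 5.57% was below the 22.5% that counting error alone gives, so the SD of that group understates the error of a single library. At 30 months, 2 of 5 libraries held no more than 3 counts.

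mir-199a-2, the copy in Dnm3os, went from 1.12 ± 0.383 CPM at 2 months to 0.834 ± 0.571 at 9 months, 0.586 ± 0.195 at 15 months, 0.484 ± 0.141 at 24 months and 0.573 ± 0.301 at 30 months. Its 30 month libraries had 0.527, 0.0921, 0.850, 0.801 and 0.596 CPM from 1 to 8 counts each, and they overlapped with the 0.616 to 1.49 CPM of 2 months. mir-199b, the copy opposite Dnm1, had the lowest mean over all libraries, and all older ages overlapped with the youngest. It had 0.701 ± 0.293 CPM at 2 months, 0.598 ± 0.541 at 9 months, 0.594 ± 0.288 at 15 months, 0.384 ± 0.125 at 24 months and 0.384 ± 0.258 at 30 months. In 30 months replicate 2 mir-199b had 0 counts, where 3 counts would be 0.276 CPM. mir-199a-1 made up 53.2% of the reads of both mir-199a hairpins over all libraries (323 of 607, 95% Clopper-Pearson interval 49.2 to 57.2), and mir-199b 26.0% of the reads of all 3 (213 of 820, interval 23.0 to 29.1). At 30 months the share of mir-199a-1 was 40.4%, on 47 reads, with an interval of 26.4 to 55.7. The log2 ratio of mir-199a-1 to mir-199a-2 differed by −0.65 between 30 and 2 months (exact permutation test, two-sided, p = 0.373, adjusted p = 0.778 over 3 copy ratios, n = 5 each), so a difference between the copies was not detectable at this depth. For mir-199b against both mir-199a hairpins the difference was 0.19 (exact permutation p = 0.762, adjusted p = 0.778).

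**Figure D1:**
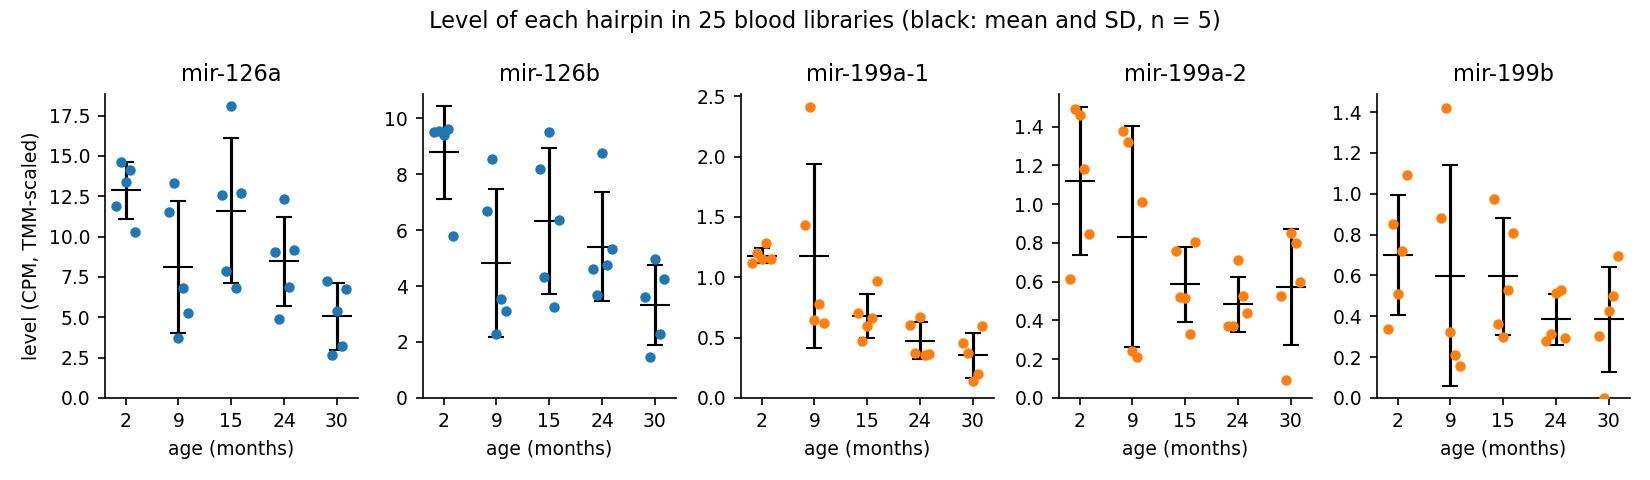
Level of each hairpin (CPM on TMM-scaled libraries, linear axes that start at 0 and differ between panels) by age in months. Points are single libraries, and black bars show the mean and SD of 5. The 30 month points of mir-126a (2.67 to 7.22 CPM), mir-126b and mir-199a-1 all lie below those of 2 months, while mir-199a-2 and mir-199b overlap, and the 9 month points of every hairpin are spread widely.

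The question the 5 ages put is how blood microRNAs differ over adult life, and the first comparison was each older age with 2 months. At 30 months 3 of the 5 hairpins were lower than at 2 months in edgeR's quasi-likelihood test and none was higher, where 5.03% of all tested precursors were lower. Hairpins of one family may share reads, so the 5 are not separate results and this count cannot be weighed against that share. The same share, 5.03%, had all 30 month libraries below all of 2 months, and so did mir-126a, mir-126b and mir-199a-1. mir-126a fell to 39.2% of its young mean, which edgeR put at −1.35 log2 units with an SE of 0.34 and an adjusted p of 0.0101. mir-126b fell by 1.42 log2 units in edgeR, with an SE of 0.36 and an adjusted p of 0.011. mir-199a-1 fell by 1.66 log2 units in edgeR, with an SE of 0.39 and an adjusted p of 0.00755. Neither mir-199a-2, at −1.0 (SE 0.45, adjusted p = 0.152), nor mir-199b, at −0.88 (SE 0.58, adjusted p = 0.343), passed the test. The median log2 change was −1.35 over the 5 hairpins and −0.04 over all tested precursors. In a bulk blood sample, fewer cells of a type and less RNA per cell cannot be told apart.

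With the reads of each family summed, both families were lower at 30 months. The mir-126 hairpins together had 21.4, 24.2, 22.8, 23.7 and 16.1 CPM in the young libraries and 10.8, 4.14, 10.3, 5.50 and 11 CPM in the oldest. They fell by 1.40 log2 units in edgeR, with an SE of 0.34 and an adjusted p of 0.00949. The mir-199 hairpins together had 2.07, 3.54, 3.12, 3.19 and 3.09 CPM at 2 months and 1.28, 0.460, 1.42, 1.5 and 1.89 CPM at 30 months. They fell by 1.22 log2 units in edgeR, with an SE of 0.38 and an adjusted p of 0.0359. Neither sum overlapped between the 2 ages, where 5.03% of the tested precursors had all 30 month libraries below all of 2 months. The sum over mir-199 does not depend on how reads were assigned to its copies, unless reads were counted once for each copy they fit.

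At 24 months 1 of the 5 hairpins, mir-199a-1, was lower than at 2 months, where 4.44% of the tested precursors were lower. It fell by 1.21 log2 units in edgeR, with an SE of 0.34 and an adjusted p of 0.0198, and all 5 of its 24 month libraries lay below all of 2 months, as did 5.33% of the tested precursors. The call was lost without 24 months replicate 2 (adjusted p = 0.080 in edgeR) or replicate 5 (adjusted p = 0.0555), the change then being −1.03 and −1.10. mir-199a-2 had −1.17 (SE 0.43, adjusted p = 0.0759), mir-199b −0.88 (adjusted p = 0.304), mir-126b −0.68 (SE 0.34, adjusted p = 0.215) and mir-126a −0.59 (SE 0.32, adjusted p = 0.256). The summed mir-199 hairpins had 1.25, 1.06, 1.89, 1.41 and 1.09 CPM at 24 months, all below 2 months, and fell by 1.13 log2 units in edgeR, with an SE of 0.35 and an adjusted p of 0.0443. The summed mir-126 hairpins stood at −0.62 with an SE of 0.33 (adjusted p = 0.245).

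At 9 and 15 months none of the 5 hairpins passed the edgeR test against 2 months, with 1 and 2 of them at an unadjusted p below 0.05, and limma-voom and DESeq2 also called 0. Of all tested precursors, 2.07% passed at 9 months and 1.48% at 15 months. At 9 months the log2 change was −0.65 for mir-126a (SE 0.32, adjusted p = 0.585) and −0.84 for mir-126b (SE 0.34, adjusted p = 0.479), against 0.07 for mir-199a-1 (SE 0.30). At 15 months it was −0.14 for mir-126a (SE 0.32), −0.82 for mir-199a-1 (SE 0.32, adjusted p = 0.516) and −0.93 for mir-199a-2 (SE 0.41, adjusted p = 0.63). mir-199a-1 had all of its 15 month libraries below those of 2 months, as did 1.48% of the tested precursors.

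**Figure D2:**
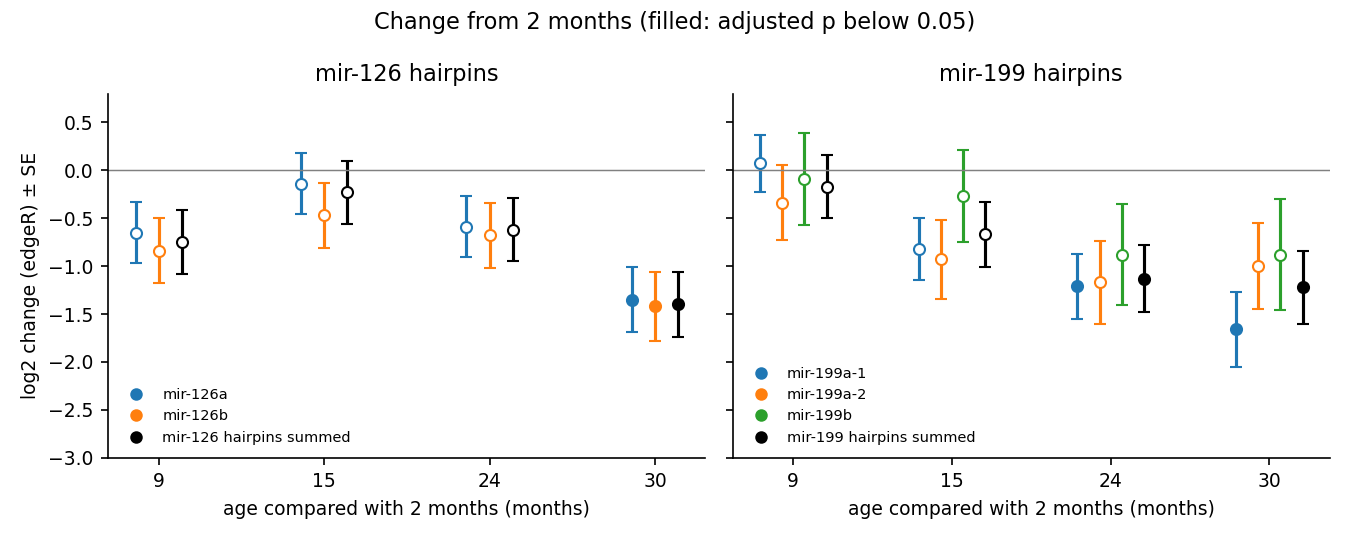
Log2 change from 2 months in edgeR (points) with its SE (bars) at each older age, for the single hairpins and for the sum of each family (black). Filled points have an adjusted p below 0.05. The 3 filled mir-126 points are all at 30 months, and the summed mir-199 hairpins are filled at 24 and 30 months, at −1.13 and −1.22.

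Between neighbouring older ages no hairpin passed the edgeR test. At 15 against 9 months 0 of 5 passed, with 1 at an unadjusted p below 0.05, mir-199a-1 at −0.89 (SE 0.32, adjusted p = 0.997), and 0% of all tested precursors passed. At 24 against 15 months 0 of 5 passed with 0 at an unadjusted p below 0.05, and 2.07% of all tested precursors passed. At 30 against 24 months 0 of 5 passed with 1 at an unadjusted p below 0.05, mir-126a at −0.75 (SE 0.34, adjusted p = 0.885), and 0% of all passed. DESeq2 and limma-voom called 0 of the hairpins in each of these 3 comparisons. In the order of mean levels, mir-126a was highest at 2 months, then 15, 24, 9 and 30 months, and its neighbours in that order overlapped.

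Over all ages at once, 4 of the 5 hairpins had a linear fall with age, where 9.17% of the tested precursors did. Here too, hairpins of one family may share reads and are not separate results. mir-199a-1 fell by 0.64 log2 units per 10 months in edgeR, with an SE of 0.12 and an adjusted p of 0.00039, the smallest p among the 5 hairpins. mir-199a-2 fell by 0.43 (SE 0.14, adjusted p = 0.0293), mir-126b by 0.37 (SE 0.12, adjusted p = 0.0289) and mir-126a by 0.36 (SE 0.11, adjusted p = 0.0293), all in edgeR. With limma-voom mir-199a-2 did not pass, at −0.41 (adjusted p = 0.0568). With library totals in place of TMM factors in edgeR, mir-126a and mir-126b (both −0.24, adjusted p = 0.171) and mir-199a-2 (−0.32, adjusted p = 0.106) did not pass. mir-199b had a slope of −0.36 (SE 0.17, adjusted p = 0.123). The median slope was −0.37 over the 5 and −0.02 over all tested precursors. Without the 2 month libraries mir-199a-1 still passed, at −0.77 per 10 months (adjusted p = 0.0154 in edgeR), and the others did not, with mir-126a at −0.33 (adjusted p = 0.368) and mir-126b at −0.22 (adjusted p = 0.586). Leaving out single libraries also ended calls of the trend, which for mir-126a held without any one library of 9 or 15 months but was lost without 2 months replicate 1, 2, 3 or 4, 24 months replicate 2 or 30 months replicate 2, 3 or 4, at adjusted p from 0.0536 to 0.0715 in edgeR. For mir-126b it was lost without 2 months replicate 1, 2, 3 or 4, 24 months replicate 2 or 30 months replicates 2 and 4 in turn, with adjusted p from 0.0578 to 0.0742. For mir-199a-2 it was lost without 2 months replicate 2, 3 or 4, 9 months replicate 2, 24 months replicates 1 and 2 in turn or 30 months replicate 2, with adjusted p from 0.0519 to 0.0784, and for mir-199a-1 it held without any one library. Without the 2 libraries under 6 M counts, mir-126a was at −0.33 per 10 months (adjusted p = 0.0657 in edgeR). In the test for any difference among the 5 ages, 1 of 5 hairpins passed, mir-199a-1 (adjusted p = 0.00526 in edgeR), where 7.99% of the tested precursors passed. mir-126a had an adjusted p of 0.0648 there and mir-126b of 0.0908, and the summed families had 0.0628 for mir-126 and 0.0671 for mir-199.

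The fall of mir-126a and mir-199a-1 at 30 months was also described by ratios within a library, which need no scaling between libraries. For both hairpins every 30 month library already lay below all of 2 months. The ratios restate the same counts and are no separate support. They were not computed for mir-199a-2 and mir-199b, nor for all precursors. mir-126a was set against mir-451a of red cells, mir-191, an abundant microRNA of many blood cells, and mir-223 of neutrophils and monocytes. The mean log2 ratio of mir-126a to mir-451a went from −12.84 ± 0.24 in the young to −14.06 ± 0.76 in the old libraries, a difference of −1.23 (exact permutation test, two-sided, p = 0.00794). To mir-191 the difference was −1.46 and to mir-223 −2.83. For mir-199a-1 the differences were −1.5 to mir-451a, −1.73 to mir-191 and −3.11 to mir-223. In all 6 ratios the 5 libraries of 30 months lay below the mean of 2 months, and each had an exact permutation p and an adjusted p of 0.00794, the smallest that 5 against 5 libraries allow. With 5 in place of 0.5 added to both counts, which weighs on rare hairpins, the differences of mir-199a-1 were −0.59, −0.82 and −2.20 in the same order. The larger differences to mir-223 hold the rise of mir-223 itself, from 58.2 ± 2.85 CPM in the young libraries to 158 ± 44.1 CPM in the old.

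Within a library the ratio of mir-126a to mir-199a-1 differed past the threshold from 2 months at 9 and 24 months, and that of the summed families at no age. Both mir-199a hairpins carry the same mature strands, so the ratio to mir-199a-1 depends on how reads were assigned. The count of mir-126a was 8.74 to 11.8 times that of mir-199a-1 at 2 months, with a median of 10.8, and 5.47 to 8.39 times at 9 months, with a median of 7.87. It was 9.86 to 29.3 times at 15 months, 12.2 to 23.0 times at 24 months and 6.56 to 25.7 times at 30 months, with medians of 15.9, 15.8 and 13.0. The log2 ratio was lower at 9 than at 2 months, with a difference of −0.61 (exact permutation test, two-sided, p = 0.00794, adjusted p = 0.0159 over 4 ages, n = 5 each). It was higher at 24 months by 0.62 (exact permutation p = 0.00794, adjusted p = 0.0159), and at 15 and 30 months it differed by 0.58 (exact permutation p = 0.0556, adjusted p = 0.0741) and 0.27 (exact permutation p = 0.484). With 5 in place of 0.5 added to both counts, the difference was 0.18 at 24 months (exact permutation, adjusted p = 0.444) and −0.52 at 30 months (adjusted p = 0.0635). The ratio of the summed families did not differ past the threshold at any age, with −0.47 at 9 months (exact permutation, adjusted p = 0.238) and 0.46 at 24 months (adjusted p = 0.19), and at 30 months it was −0.19. mir-199a-1 had fewer than 20 counts in most of these libraries.

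Levels of mir-126a and mir-199a-1 went together across libraries, both pooled and with each age centred on its mean. Over the 25 libraries the levels of both, as log2(CPM + 0.5), had a Pearson r of 0.66 and a Spearman rho of 0.67 (permutation p = 0.0003 and adjusted p = 0.0006 for each). Without the 2 libraries farthest from the median of mir-126a, r was 0.60. With each age centred on its own mean, r was 0.67 (permutation p = 0.00603, adjusted p = 0.00603) and rho 0.62 (permutation p = 0.00999, adjusted p = 0.00999), and r was 0.68 without the 2 farthest libraries. These were the 2 relations computed. Both values of a library share its depth and its scaling factor, and the 6 lanes hold too few libraries each for a value within a lane. At 9 months replicates 1 and 2 had 18.2 and 21.8 CPM of summed mir-126 and 3.70 and 5.14 CPM of summed mir-199. Replicates 3 to 5 of that age had 6.00 to 10.3 and 1.20 to 1.79 CPM. At 2 months mir-199a-1 spanned only 1.12 to 1.28 CPM. No r was computed for a single age or without the 9 month libraries.

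**Figure D3:**
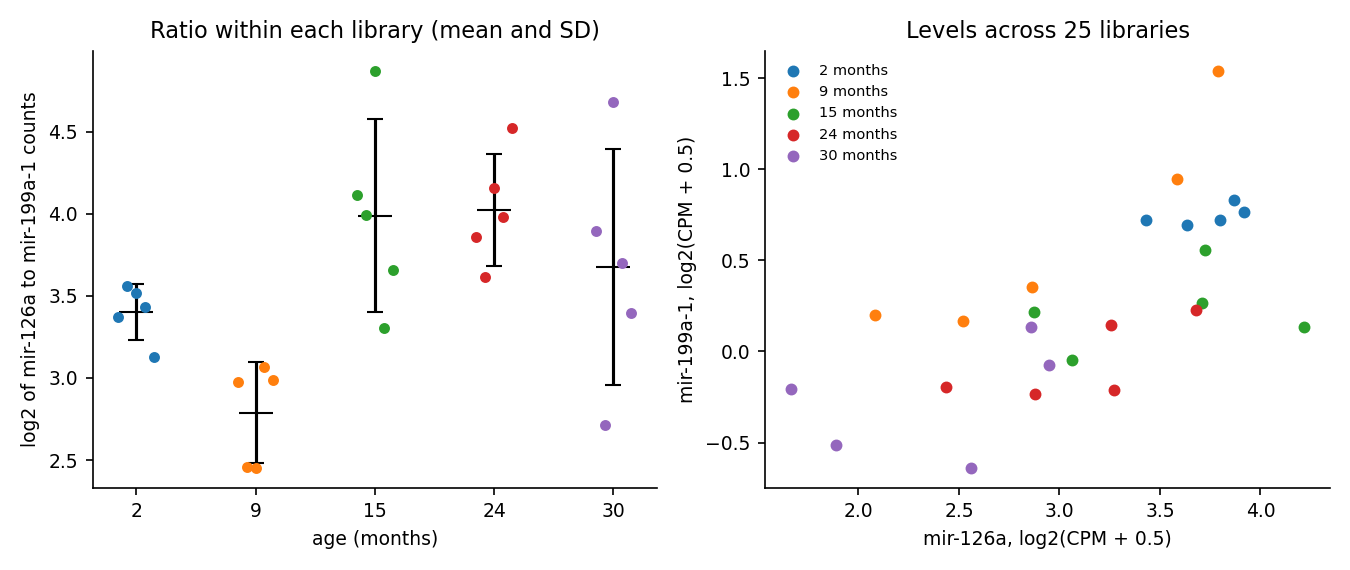
Left, log2 ratio of mir-126a to mir-199a-1 counts (0.5 added to both) in each library by age in months, with mean and SD. Right, log2(CPM + 0.5) of both hairpins in the 25 libraries, coloured by age. All 9 month ratios lie below and all 24 month ratios above those of 2 months, and the right panel shows the pooled relation with an r of 0.66.

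Lanes 5 to 8 each hold libraries of both 2 and 30 months, and in each of them mir-126a and mir-199a-1 were lower in the old libraries. For both hairpins every 30 month library lay below all of 2 months, so any pairing of libraries would give this order. The values by lane are therefore a description and no test of lane. In lane 5 mir-126a had 14.6 CPM in the young and 3.2 CPM in the old library, and mir-199a-1 had 1.20 and 0.200 CPM. In lane 6 mir-126a had 13.4 CPM in the young and 7.22 and 6.75 CPM in the old libraries, and mir-199a-1 had 1.15 against 0.451 and 0.596 CPM. Lane 7 had 14.1 against 2.67 CPM of mir-126a and 1.28 against 0.368 CPM of mir-199a-1. Lane 8 had 10.3 against 5.39 CPM and 1.15 against 0.142 CPM. With lane as a factor the changes at 30 months were −1.40 for mir-126a (adjusted p = 0.0158 in edgeR) and −1.65 for mir-199a-1 (adjusted p = 0.0159).

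The scaling of libraries bears on the size of the fall. With library totals in place of TMM factors, the median of all tested precursors at 30 months moved to 0.20, and calls changed from 31 higher and 17 lower to 51 higher and 6 lower. mir-199a-1 still passed at −1.44 (adjusted p = 0.0226 in edgeR), and mir-126a at −1.09 (adjusted p = 0.0554) and mir-126b at −1.14 (adjusted p = 0.0573) did not. Relative to the median of all precursors, mir-126a then stood at −1.29, against −1.31 with TMM factors. In the trend, TMM factors gave 36 higher and 31 lower calls, library totals 80 and 9, and upper quartile factors 38 and 18. At 24 months the median of all moved to 0.36 with library totals, calls went from 26 higher and 15 lower to 69 and 3 (21 and 3 with upper quartile factors), and mir-199a-1 was at −0.84 (adjusted p = 0.114), or at −1.10 with upper quartile factors (adjusted p = 0.0536).

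**Figure D4:**
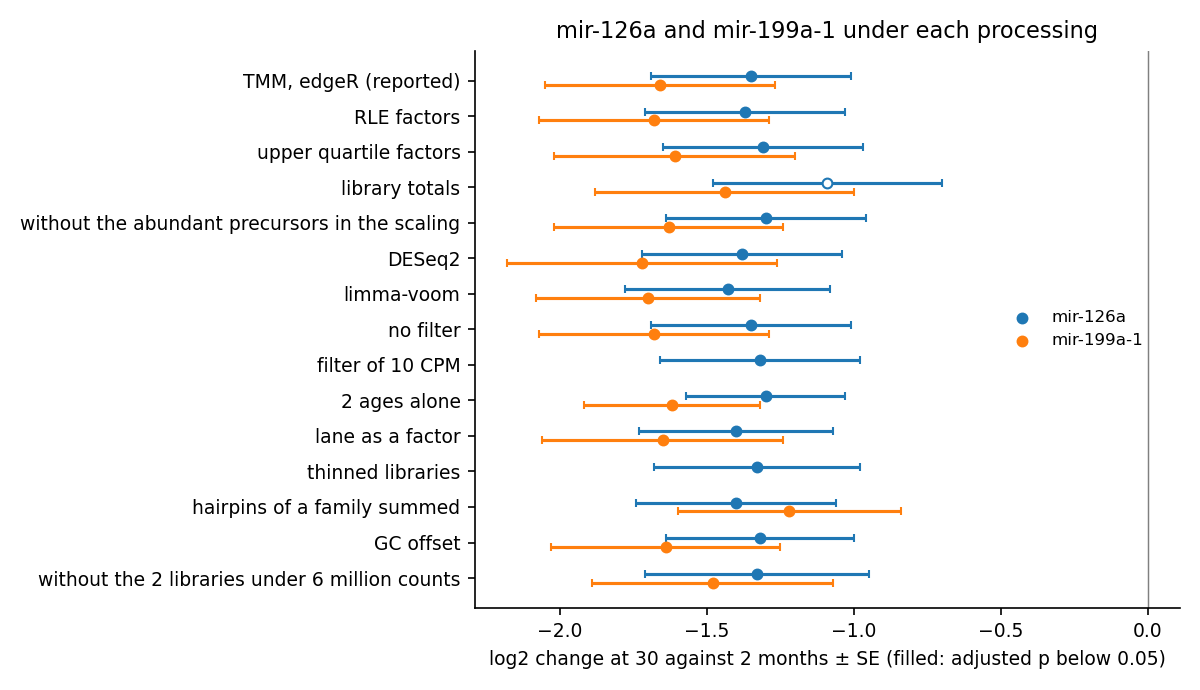
Log2 change of mir-126a and mir-199a-1 at 30 against 2 months (points) with its SE (bars) under each way of processing. Filled points have an adjusted p below 0.05, and the row of summed hairpins shows the family of each. The open point is mir-126a with library totals, at −1.09; mir-199a-1 has no point where a filter of 10 CPM or thinning to the smallest library left it out of the test.

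Base composition differed between libraries as well. The slope of log2 level on GC content of the mature strands ran from −0.127 to 0.0724 per 10% GC in the 2 month libraries and from −0.0639 to 0.257 in those of 30 months, over the 303 tested precursors with a known sequence (89.6% of those tested). miR-126a-3p has 45.5% GC, near the upper edge of the 101 precursors lowest in GC. Those 101 held 9 of the 17 precursors lower at 30 months, with a median log2 change of −0.12, and the 103 in the middle and the 99 highest in GC held 4 each. Over the 25 libraries the GC slope had a Pearson r of −0.57 with the log2 level of mir-126a and −0.56 with that of mir-126b. For the mir-199 hairpins r was −0.35 to −0.23. With a GC offset in the fit, mir-126a was at −1.32 (adjusted p = 0.00533 in edgeR) and mir-199a-1 at −1.64 (adjusted p = 0.00471). The offset grows with the distance from the mean GC content, so it can move precursors near that mean only little. The part of base composition in the fall was not tested.

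Among the other microRNAs on a chosen list linked to platelets, none passed the test as lower at 30 months. The list does not hold every microRNA carried by platelets. Of the 17 other tested members of this platelet and megakaryocyte list, 4 were higher than at 2 months in edgeR, where 9.17% of all tested precursors were higher. The number lower was 0, where 5.03% of all tested precursors were lower, and 0 of 17 is near that share. The median log2 change was −0.02, against −0.04 over all precursors. At an unadjusted p below 0.05 the counts were 6 higher and 0 lower, and DESeq2 called 6 higher and 0 lower. Those higher were mir-223 at 1.44 (SE 0.17, adjusted p = 1.65e-06), mir-28a at 0.67 (SE 0.16, adjusted p = 0.00886), mir-24-2 at 0.43 (SE 0.10, adjusted p = 0.00755) and mir-222 at 0.31 (SE 0.10, adjusted p = 0.0426), all in edgeR. mir-223 and mir-24-2 are also abundant in myeloid cells, and mir-24-2 gives the same 3p strand as mir-24-1. The whole list with the mir-126 and mir-199 hairpins took 3.08% ± 0.181 of all reads in the young libraries (2.88 to 3.30%) and 3.51% ± 0.330 in the old (3.02 to 3.95%), and none of its 22 members was at 0 in every library of an age. Such shares rest on library totals. With library totals in edgeR the median log2 change was 0.23 for the 17 and 0.20 over all precursors. How far platelet number moved with the 5 hairpins was not tested.

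Of the 12 other tested members of an endothelial and angiogenic list, 3 were higher and 1 lower at 30 months, where 9.17% of all tested precursors were higher and 5.03% lower. Their median was 0.25, against −0.04 over all precursors. mir-296, described in angiogenic endothelium, went from 96.6 ± 11.9 to 6.43 ± 0.633 CPM, a change of −3.91 log2 units (SE 0.27, adjusted p = 6.49e-11 in edgeR). mir-23b rose by 0.58 (SE 0.14, adjusted p = 0.0081 in edgeR), with the reservation that its 3p strand is close to that of mir-23a. mir-322, of the mir-322 and mir-503 cluster, had 0.87 at 30 months (SE 0.30, adjusted p = 0.0504) and rose by 0.36 per 10 months in the trend (SE 0.09, adjusted p = 0.00718 in edgeR). Summed, the list took 2.65% ± 0.183 of all reads in the young libraries (2.33 to 2.76%) and 3.26% ± 0.287 in the old (3.04 to 3.74%). With library totals, on which these shares rest, the median log2 change was 0.52 for the 12 and 0.20 over all precursors. The list member mir-92a-1 is also in the erythroid list. mir-217 was at 0 in every library from 2 to 24 months.

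A stromal and smooth muscle list includes mir-143 and mir-145a of smooth muscle. Of its 9 other tested members, 0 passed the edgeR test in either direction at 30 months, and 0 passed in DESeq2 or limma-voom. Of all tested precursors 9.17% were higher and 5.03% lower in edgeR, and 0 of 9 is not far from these shares. At an unadjusted p below 0.05, 1 of the 9 was lower in edgeR, 3 in DESeq2 and 0 in limma-voom. The median of the 9 was −0.16, and 0.08 with library totals. The summed list took 0.0176% ± 0.00281 of all reads in the young libraries (0.0152 to 0.0224%) and 0.0167% ± 0.00241 in the old (0.0143 to 0.0205%). mir-214, which lies with mir-199a-2 in Dnm3os, had 0 to 9 counts per library and did not pass the filter. It had 0.318 ± 0.222 CPM in the young and 0.118 ± 0.165 CPM in the old libraries, with 4 of 5 libraries of 30 months at no more than 3 counts, so no difference can be read at this depth.

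At 30 months 1 of 8 tested members of an erythroid list was lower, where 5.03% of all tested precursors were lower. This was mir-144, which is cut from the same transcript as mir-451a. It had 1190 ± 217 CPM in the young and 450 ± 258 CPM in the old libraries, a change of −1.41 log2 units (SE 0.35, adjusted p = 0.0101 in edgeR). With library totals 0 of the 8 passed. Of the 7 tested myeloid members 5 were higher and 0 lower, where 9.17% of all tested precursors were higher, with a median of 0.70 against −0.04 over all precursors. Among them were mir-23a at 0.90 (SE 0.17, adjusted p = 0.000658 in edgeR) and mir-146b at 0.70 (SE 0.22, adjusted p = 0.037 in edgeR). The myeloid list took 0.691% ± 0.0709 of all reads in the young libraries (0.593 to 0.768%) and 0.936% ± 0.142 in the old (0.734 to 1.08%). Of 8 lymphocyte members 0 passed in edgeR, where 9.17% of all tested precursors were higher and 5.03% lower. At an unadjusted p below 0.05, 1 of the 8 was higher and 2 were lower, and DESeq2 called 1 of them lower. Their median was −0.17, and 0.10 with library totals, and they took 0.182% ± 0.0289 and 0.178% ± 0.0571 of the reads at the same ages. The part of these cell types in the levels of mir-126 and mir-199 was not tested.

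Across the 25 libraries, the levels most like that of mir-126a, among the 152 other precursors averaging 10 CPM or more, belonged to mir-26b, mir-98, mir-144, let-7f-1 and let-7f-2. Their Pearson r with mir-126a was 0.85, 0.83, 0.78, 0.76 and 0.76, and within ages 0.80, 0.74, 0.71, 0.67 and 0.66. All 5 were lower at 30 months, from −0.99 for mir-26b (SE 0.32, adjusted p = 0.0399 in edgeR) to −1.41 for mir-144. Their GC content was 30.2 to 41.7%, below that of miR-126a-3p, and let-7f-1 and let-7f-2 share their mature strand. For mir-199a-1 the closest were mir-296, mir-98, mir-144, let-7f-1 and let-7f-2, with r of 0.69, 0.65, 0.63, 0.61 and 0.61, but within ages r was 0.11, 0.37, 0.21, 0.28 and 0.27. These r are descriptions over libraries that share depth, scaling and base composition with each value.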

How the data were processed

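The authors deposited 1 table of raw counts per microRNA precursor for 25 small RNA libraries, with no normalisation seen in the whole-number values. Per the submitters' processing notes, the tools were SAMtools 1.3.1-9, Trimmomatic 0.36 and bcl2fastq 1.8.4, with no roles stated. The aligner, counter, strand setting and build were not given in the sources used here. Groups follow the age in the labels. Replicate numbers 1 to 5 follow deposit order and pair no animals; p-values measure the spread between these animals.

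Of 1193 precursors, edgeR's expression filter by age left out 855. Tests used edgeR 4.0.16 (quasi-likelihood, robust, TMM factors, all 25 libraries) in R 4.3.3, two-sided, with Benjamini-Hochberg adjustment over all tested precursors and a threshold of 0.05. DESeq2 1.42.0 and limma 3.58.1 (voom) were alternatives. Ratios used counts plus 0.5 and exact permutation tests. Both kinds of test were tested on simulated data with known changes.

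Named were the 5 hairpins, the 5 precursors with the highest r to mir-126a and to mir-199a-1, up to 4 members of each cell type list past the threshold, and mir-214. Members and lists were chosen with earlier results of these data known, the lists from textbook knowledge.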

Additional observations from a re-analysis of the deposited data

Results flagged for a closer look

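In 40 groups of 5 libraries (each hairpin, mir-214 and each family sum at each age), 2 had a single library far from the others, with a gap above 0.71 of the group's range; chance alone marks about 1 in 20 such groups. The level of mir-126b in 2 months replicate 5 was 5.81 CPM, below the 9.42 to 9.61 CPM of the other four, with a gap of 0.95 of the range. The level of mir-214 in 30 months replicate 4 was 0.4 CPM on 4 counts, above the others, which had 0 or 1 count, with a gap of 0.752 of the range.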

How the results depend on the processing

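Over 45 results of single hairpins, 1073 alternative values kept direction and side of the threshold, 40 lost the call, 16 gained one and 25 changed sign. Alternatives were other scalings, DESeq2, limma-voom, other filters, fewer ages, lane, thinning, summed families, a GC offset, each library left out and, chosen after seeing the data, no libraries under 6 M counts. At 30 against 2 months, mir-199a-1 passed in all 22 alternatives that tested it (−1.84 to −1.22) and mir-126a in 23 of 24 (−1.49 to −1.09). The filter of 10 CPM and thinning to the smallest library left mir-199a-1 out of the test, so its call at equal depth is not known. The 3 hairpins called there became 1 with library totals and 1 with a filter of 10 CPM, which left out the mir-199 hairpins and mir-126b, and stayed 3 without any 1 library. With thinning, mir-126a and mir-126b still passed. The 1 called at 24 months became 0 with upper quartile factors, library totals, the 10 CPM filter or thinning, 2 in a fit of both ages alone, and 0 to 1 without single libraries. The 1 for any age became 3 with DESeq2 or the GC offset, 0 with the 10 CPM filter or thinning, and 1 to 3 without single libraries (3 without 9 months replicate 2). The 4 of the trend became 1 with library totals, the 10 CPM filter, thinning or no 2 month libraries, 2 with no filter, and 1 to 4 without single libraries; 1 was left without 2 months replicate 2, 3 or 4, 24 months replicate 2 or 30 months replicate 2. The filter of 10 CPM and thinning tested fewer precursors, the fit with no filter tested more, and other fits held fewer libraries. Beyond this, the cause of the changed calls was not tested.

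Sign changes of single hairpins concerned values that passed in no setting. mir-199b at 9 against 2 months was 0.06 with library totals and −0.70 to 0.14 without single libraries. mir-199a-1 there was −0.09 with limma-voom, −0.08 with lane, −0.17 with the family summed and −0.38 to 0.22 without single libraries. mir-126a at 15 against 2 months was 0.06 when thinned and −0.31 to 0.01 without single libraries. mir-199b at 15 against 9 months was 0.05 with limma-voom and −0.43 to 0.47 without single libraries. At 24 against 15 months, library totals gave 0.08 for mir-126b and 0.01 for mir-199a-2. At 30 against 24 months mir-199b was 0.11 with lane, 0.04 with the GC offset, 0.03 without the libraries under 6 M counts and −0.32 to 0.36 without single libraries, and mir-199a-2 was −0.10 with the family summed. The ratio of mir-126a to mir-199a-1 at 9 months was −0.47 with families summed. At 24 months it was 0.18 with 5 added to both counts and 0.46 with families summed. At 30 months it was −0.52 and −0.19. At 15 months it was 0.36 to 0.76 without single libraries, and passed without 15 months replicate 4. The ratio of mir-126b to mir-126a was 0.00 with 5 added and −0.18 to 0.04 without single libraries, and that of mir-199b to mir-199a −0.01 to 0.67.

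Counts of all precursors called ran over the alternatives from 3 to 7 (7 as reported) at 9 months, 2 to 5 (5) at 15 months, 23 to 72 (41) at 24 months, 15 to 62 (48) at 30 months, 0 to 16 (7) at 24 against 15 months, 0 to 1 (0) at 30 against 24 months, 11 to 44 (27) for any age and 9 to 89 (67) in the trend. The cause of these shifts was not tested. Depth limits the mir-199 hairpins most, which had 0 to 8 counts each at 30 months. No paired analysis was possible because replicate numbers follow deposit order and the animals are numbered separately.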
